A study of Mus musculus with 2 samples.

Results

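The subject here is a set of 10 genes for AP-1 and small Maf transcription factors, 10 of the 37072 named targets on the array. The Fos family is represented by Fos, Fosb, Fosl1 and Fosl2, the Jun family by Jun, Junb and Jund, and the small Maf family by Maff, Mafg and Mafk. Probes were taken where the gene name in the scanner files equals one of these symbols, which gave 16 probes. The genes were chosen with the values below already known, so the differences between the arrays are given as a description, with no test.

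Total RNA came from mouse cells, and 2 one-colour Agilent arrays were hybridised. In 1 sample the cells received S180, an agent named by this code only, and in the other they received the solvent DMSO as the control. Cell type, strain, genotype, dose, exposure time and the nature of S180 are not stated in the labels, nor is anything else that both groups share. With 1 array per group there was no replicate, and no p-value was computed. The errors printed are those of the scanner software for a spot and the spread between repeated spots of one probe. They leave out variation between cultures, RNA extracts and labelling reactions.

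AP-1 is a dimer of leucine zipper proteins. Fos proteins pair with Jun proteins, whereas Jun proteins can also pair with each other, and the dimer binds a short element in promoters and enhancers of genes for growth, stress and matrix turnover. Fos and Jun are classical immediate early genes, transcribed within minutes of a signal through MAP kinases and the serum response factor, and their mRNAs are short-lived. Small Maf proteins are leucine zipper proteins without an activation domain of their own: they repress as dimers of small Maf proteins and activate when paired with CNC proteins such as NRF2 on antioxidant response elements.

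The probes that carry the largest differences are 60 bases long, and the first 30 bases of each, as the scanner files give them, identify what was measured. Both Fosl2 probes are shown because they lie at different places in the same transcript (from base 5726 and from base 738, in that order).
Maff: gccagttatctgccttgagtattttgtaga
Fosl2, base 5726: gctatggaggaaagaacatattaaaaactt
Fosl2, base 738: gattgctgagctgcagaaggagaaggagaa
Fos: cctgaggtctttcgacatgtggaaagtgaa

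In build mm9, the build of the files, the Maff probe lies at chr15:79189442-79189501 on the plus strand. The Fosl2 probes lie at chr5:32460076-32460135 and chr5:32455088-32455147, and the Fos probe at chr12:86818118-86818177, all on the plus strand. No annotation of that build was used, so exons and untranslated regions are not assigned.

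Maff, Fosl2 and Fos were at least 2-fold higher on the S180 array, at 3.52-fold, 2.86-fold and 2.04-fold. Jun and Jund were 1.77-fold and 1.59-fold higher. Junb, Mafg and Mafk differed by at most 1.21-fold, Fosb was 1.16-fold higher on the DMSO array, and Fosl1 was not well above background on either array. Thus 3 of the 9 measured members were at least 2-fold higher and 0 at least 2-fold lower, against 0.582% and 0.168% of the 20777 measured genes. At 1.5-fold, 5 members were higher and 0 lower, against 3.08% and 1.71% of all measured genes. Maff alone passed 3-fold, as did 0.116% of measured genes. Because the members were chosen from these values, nothing is read from these shares.

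A gene counts as measured when its probe with the highest mean signal carried the scanner's flag for signal well above background, without saturation, on both arrays. Differences are log2 values, S180 minus DMSO, after each array's 75th percentile was subtracted. The percentile was a signal of 615 in S180 and 748 in DMSO, so that equal raw signals correspond to a scaled difference of 0.28. Over all measured genes the median difference was 0.00 and the SD 0.29. Of the 59305 non-control spots, 36717 in S180 and 35921 in DMSO passed that flag, and 0 were saturated. The median gene moved to -0.35 with scaling on 8 spike-in transcripts and to -0.28 without scaling, so that each direction below is relative to the median gene. The cells' identity could be checked only against 7 marker lists, whose signals come from different probes and are not ranked against each other. Measured were 4 of 4 melanocyte markers (signals 4651 to 233546), 4 of 4 leukocyte (31 to 4788), 3 of 3 fibroblast (286 to 1378), 2 of 3 neuron (2305 to 7313), 2 of 3 epithelial (13 to 47), 1 of 3 endothelial (78 to 113) and 1 of 3 muscle markers (116 to 133). Ptprc, the defining leukocyte marker, was well above background at 1 of its 7 probes. At least 1.5-fold lower on the S180 array were 1 fibroblast and 1 epithelial marker, no other marker measured was 1.5-fold apart, and the part of cell makeup in the members' differences was not tested.

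**Figure D1:**
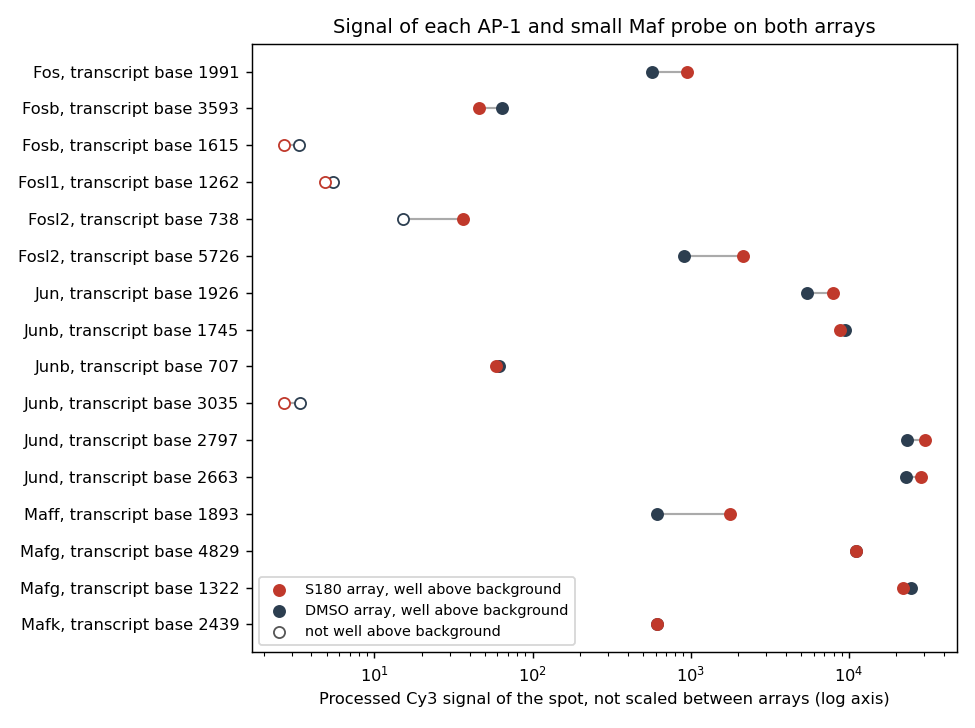
Processed Cy3 signal of each of the 16 member probes (log axis, arbitrary scanner units, not scaled between arrays) on the S180 array in red and the DMSO array in blue, open where the probe was not well above background. Values are comparable along a row only, and the pairs of Maff and Fosl2 points lie farthest apart among the probes well above background on both arrays.

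In the Fos family, 2 of the 3 measured members were 2-fold higher in S180 and the family's median difference was 1.03. Fosl2 encodes FRA2, a Fos-related protein that lacks the strong activation domain of c-Fos. The signal of its probe at base 5726 was 2152.7 in S180 and 913.75 in DMSO. After scaling the difference was 1.52 ± 0.20 (log2, scanner error of the difference), or 2.86-fold, place 33 from the top among the measured genes. The probe at base 738 gave 36.245 in S180 and 15.178 in DMSO, where it was not well above background. Set against the lowest signal well above background on that array, its fold is at least 2.67 in S180. The probe at base 738 passed the flag only on the array where it was higher. Its bound is therefore not taken as support for the difference at base 5726. That bound leaves out the scanner error of the difference at the second probe, 0.40 (log2). Before subtraction, the spot means were 77.553 and 59.089 at that probe, with local backgrounds of 29 and 32.

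Fos encodes c-Fos, the founding member of AP-1 and the usual marker of a recent signal to the nucleus. Its probe, from base 1991, had a signal of 953.7 in S180 and 568.09 in DMSO. The difference was 1.03 ± 0.20, or 2.04-fold, place 110 from the top. The difference lay near the 2-fold line and fell short of it under 4 of 11 alternatives, at 0.67 on the spike-in scale, 0.75 without scaling, and 0.97 with median scaling and with normexp background correction. It stayed above 0 under all 11. Fos has 1 measured probe, so the settings that change only probes, filters or outlier spots left it at 1.03. The deposited table nearly repeats quantile normalization, so the 11 are not independent checks.

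Fosb, an early-response gene like Fos, had 1 measured probe, at chr7:19888168-19888227 on the minus strand. The signal was 45.649 in S180 and 64.234 in DMSO. The scaled difference was -0.21 ± 0.24, smaller than its own scanner error, and it was 0.02 with normexp correction, the 1 alternative that turned its sign. The other Fosb probe gave 2.70 and 3.36 and was not well above background on either array. Fosl1, which encodes FRA1, had a single probe with signals of 4.87 and 5.48, not well above background on either array, so it has no difference here. In this family the signals therefore allow a difference for Fos, Fosl2 and 1 probe of Fosb.

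In the Jun family 3 of 3 members were measured, 0 were 2-fold higher and 2 were 1.5-fold higher, and the median difference was 0.67. Jun encodes c-Jun, the main partner of c-Fos and a substrate of the JNK kinases. Its probe, at chr4:94716928-94716987 on the minus strand, had a signal of 7922.6 in S180 and 5443.6 in DMSO. The difference was 0.82 ± 0.20, or 1.77-fold, place 242 from the top. It was 0.47 on the spike-in scale and between 0.54 and 0.84 in the other settings. Jun was thus higher on the S180 array in all 12 settings and 2-fold higher in none. With 1 measured probe, it kept its main value in the settings that change only probes, filters or outlier spots.

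Jund encodes JunD, the Jun protein usually present in resting cells. It had 2 probes, at chr8:73224436-73224495 and chr8:73224302-73224361 on the plus strand. The first had a signal of 30474 in S180 and 23223 in DMSO, a difference of 0.67 ± 0.20. The second had 28661 and 22910, a difference of 0.60 ± 0.20. Both probes of Jund were higher on the S180 array, by 1.59-fold and 1.52-fold, and the difference of the first was 0.32 on the spike-in scale.

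Junb encodes JunB, often an antagonist of c-Jun in growth control. Its probe at base 1745 had a raw signal that was lower on the S180 array, 8836.5 against 9514.1, and a scaled difference of 0.17 ± 0.20. The probe at base 707 had 58.609 and 61.126, a difference of 0.22 ± 0.23. The third Junb probe, designed to another transcript, gave 2.69 and 3.37, not well above background on either array. The Junb differences were smaller than their scanner errors, and that of the first probe was -0.18 on the spike-in scale and -0.11 without scaling. Junb thus lay near the median gene, between 0.12 and 0.19 above it over the 12 settings.

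**Figure D2:**
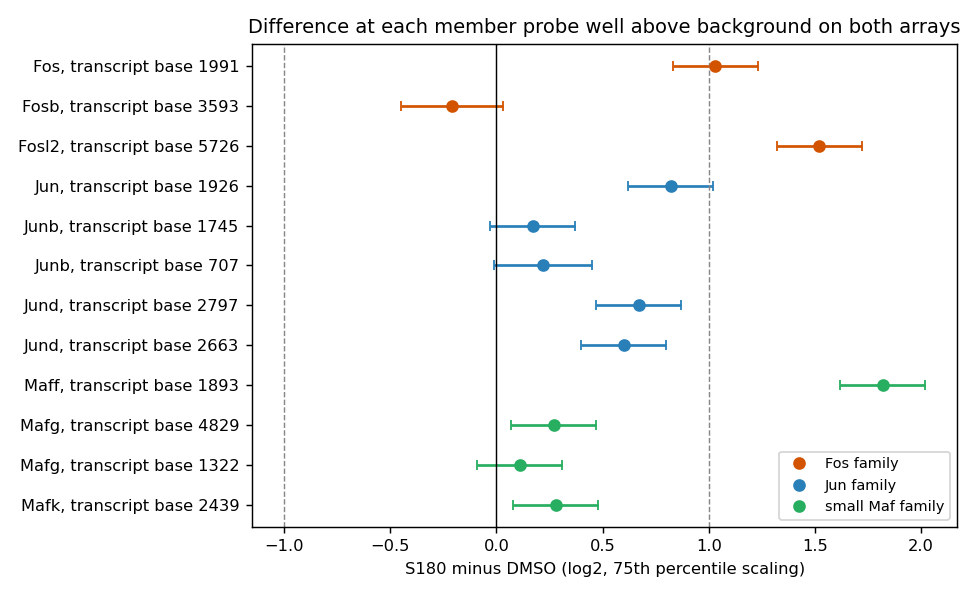
S180 minus DMSO (log2, after scaling to the 75th percentile) at the 12 member probes well above background on both arrays, coloured by family, with dashed lines at 2-fold. Bars are the scanner software's error of the difference; 11 of the 12 points lie above 0, and the bars of Fosl2 and Maff lie wholly above the 2-fold line.

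In the small Maf family 3 of 3 members were measured and 1 was 2-fold higher, with a median difference of 0.28. Maff encodes MafF, the small Maf protein best known for being induced by stress and cytokines. Its probe had a signal of 1763.9 in S180 and 608.43 in DMSO, with spot means of 1760.4 and 633.83 over local backgrounds of 26 and 28. The difference was 1.82 ± 0.20, or 3.52-fold, place 19 from the top among 20777 measured genes. It lay between 1.46 and 1.84 over the 12 settings and was 2-fold or more in every one of them. Fosl2 did likewise, with 1.16 to 1.54. Both genes have 1 measured probe, so settings that change only probes, filters or outlier spots repeated their main values.

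The other small Maf genes did not show a difference of that size. Mafg, whose product is a broadly expressed partner of NRF2, had 2 probes on chromosome 11. The probe at base 1322 had a signal of 21927 in S180 and 24714 in DMSO, a difference of 0.11 ± 0.20. The probe at base 4829 had 11058 and 11144, a difference of 0.27 ± 0.20. Mafk, which encodes MafK, a partner of NF-E2 p45 in blood cells, had nearly equal raw signals, 613.52 and 614.05, and a scaled difference of 0.28 ± 0.20. On the spike-in scale the difference of Mafg was -0.25 and that of Mafk -0.08, and without scaling they were -0.17 and 0.00. The Maff probe was thus the 1 small Maf probe of 4 with a difference above 0.28. The differences between family members were not tested, since each rests on single spots.

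The spread between repeated spots bears on how far these differences exceed the error of the array. With the measured genes ordered by mean signal and cut into 3 equal classes, probes spotted many times over each array gave the SD of a difference between single spots. It was 0.042 in the bright class (262 probes), 0.072 in the middle class (6 probes) and 0.266 in the dim class (11 probes). Jun, Jund, Mafg and the first Junb probe lie in the bright class. Maff, Fosl2, Fos and Mafk lie in the middle class, and Fosb in the dim class. The differences of Maff, Fosl2, Fos, Jun and Jund were several times this SD, whereas that of Fosb was smaller than 1 SD. Those of Mafk (0.28), the first Junb probe (0.17) and Mafg (0.11) also exceeded the SD of their class. The SD between spots therefore does not separate the members past 1.5-fold from these 3. Over genes, the SD of the difference was 0.21 in the bright, 0.27 in the middle and 0.36 in the dim class.

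Each member was also placed among the 500 measured genes nearest to it in mean signal. Maff and Fosl2 lay at percentile 99.8 of those genes, Jun at 99.4, Fos at 99.2 and Jund at 99.0. Junb lay at 88.8, Mafk at 87.4, Mafg at 74.4 and Fosb at 22.8. Of the 500 neighbours of Maff 4 were 2-fold higher, of those of Fosl2 1 was, and of those of Jun 2 were. The 5 members above 1.5-fold lay at percentile 99.0 or higher among genes of like signal. These are places in these 2 arrays with no test. The 5 were picked by their differences, so high places follow from that choice.

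**Figure D3:**
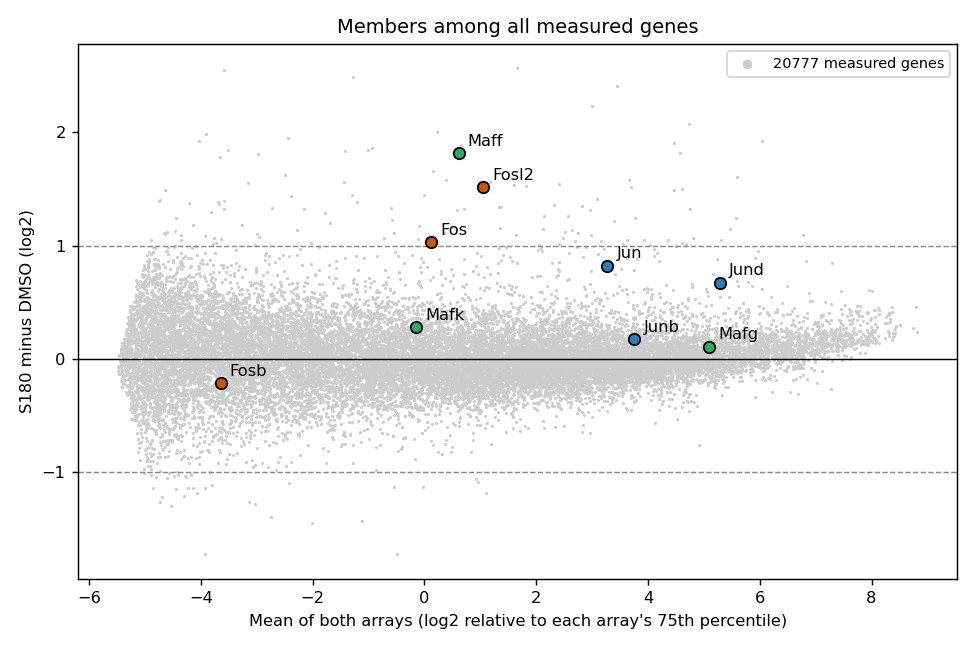
S180 minus DMSO (log2) against the mean of both arrays (log2 relative to each array's 75th percentile) for the 20777 measured genes in grey and the 9 measured members in colour by family (orange Fos, blue Jun, green small Maf), with dashed lines at 2-fold. Maff, Fosl2 and Fos lie above the upper line, Jun and Jund above most genes of like signal, and Junb, Mafg, Mafk and Fosb inside the cloud.

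The measured genes next to Maff in the order of differences were taken by a fixed rule, 3 on each side. Above it were Mpp2 and C80012, both at 1.84, and Trib3, a stress-induced pseudokinase, at 1.82. Below it were Gm2011 at 1.81, an intergenic transcript named by its coordinates at 1.78, and Apln, the precursor of the peptide apelin, at 1.66. With 2 arrays, likeness means only that the differences are close. The Trib3 probe had signals of 27528 in S180 and 9473.1 in DMSO, and the Apln probe 1212.2 and 465.43. The other neighbours had lower signals. In the same order they were 433.84 and 147.45 for C80012, and 145.55 and 50.318 for Gm2011. Mpp2 had 101.77 and 34.495, and the intergenic transcript 90.622 and 31.972.

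The ATF, BATF and JDP proteins, which pair with Fos or Jun proteins, had all 7 genes measured, with 1 at least 2-fold higher, 1 at least 1.5-fold lower and a median of 0.04. Atf3, a stress-induced partner of Jun proteins, had a signal of 610.39 in S180 and 203.74 in DMSO, a difference of 1.86 ± 0.21, or 3.64-fold. Batf2 had 39.318 and 74.559, a difference of -0.64 ± 0.24, or 1.56-fold higher in DMSO. Atf2, which has the brightest probe of the list, differed by 0.04. Jdp2, a repressor that binds Jun, differed by 0.49, and Batf and Batf3 by -0.42 and -0.26. Atf3 was thus the 1 gene of this list past 2-fold, as Maff, Fosl2 and Fos were among the members.

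The CNC and Bach proteins are the activating and repressing partners of small Maf proteins, and of their 6 genes 5 were measured, with 0 at 1.5-fold in either direction and a median of 0.01. Nfe2l2, which encodes NRF2 and has the brightest probe of this list, had 12408 in S180 and 15577 in DMSO, a difference of -0.05. Bach1, a repressor of the haem oxygenase gene, differed by 0.01, Bach2 by 0.13, Nfe2l3 by -0.08 and Nfe2l1 by 0.35. Nfe2, the blood-cell partner of MafK, was not well above background. Of the 4 large Maf genes 2 were measured, Maf at -0.22 and Mafa at 0.06. No measured CNC, Bach or large Maf gene differed by 1.5-fold.

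Upstream of Fos and Jun, 15 of 16 genes for MAP kinases, their kinases and serum response factors were measured. None was 1.5-fold apart, and the median was 0.01. Map2k1, which encodes MEK1, had the largest difference, 0.53, followed by Elk3 at 0.44. Srf, the serum response factor itself, differed by 0.11, Elk1, with the brightest probe of the list, by 0.19, and Mapk8, which encodes JNK1, by 0.27. These are mRNA signals, and kinase activity was not measured. Among 6 genes for proteins that bind AU-rich mRNA, the element that makes Fos mRNA short-lived, none was 1.5-fold apart and the median was 0.07. Zfp36, which encodes the decay factor tristetraprolin and is itself an early-response gene, differed by 0.49, and Elavl1, which encodes the stabilising protein HuR and has the brightest probe, by 0.08.

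Of 16 textbook AP-1 targets 9 were measured, with 1 at least 1.5-fold higher, 0 lower and a median of 0.07. Ccnd1, which encodes cyclin D1, had 9246.4 in S180 and 6481.3 in DMSO, a difference of 0.79, or 1.73-fold. Plau, the urokinase gene, followed at 0.58 from a dim probe (90.473 and 73.340). Cd44, with the brightest probe, differed by 0.02, Plaur by 0.07, Timp1 by -0.19 and Hbegf by -0.28. The other 7 genes of the list were not measured on both arrays.

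The antioxidant response element genes, which NRF2 and small Maf proteins bind together, were all measured (15 of 15). Relative to the median gene 13 of them were higher, with a median of 0.22, 2 at least 1.5-fold higher and none 1.5-fold lower. With quantile normalization 9 of 15 were above the median gene and the median was 0.11, and on the spike-in scale the median was -0.14. Hmox1, which encodes haem oxygenase 1, had 50853 in S180 and 33296 in DMSO, a difference of 0.89, and its other probe, a dim one, gave 1.0. Slc7a11, the cystine transporter gene, differed by 0.77 at its brightest probe and by 0.64 to 1.41 over 4 probes. Fth1, ferritin heavy chain, with the brightest probe, differed by 0.16. Gclc and Gclm, of glutathione synthesis, differed by -0.26 and -0.19, so genes of this list lay on both sides of the median gene.

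**Figure D4:**
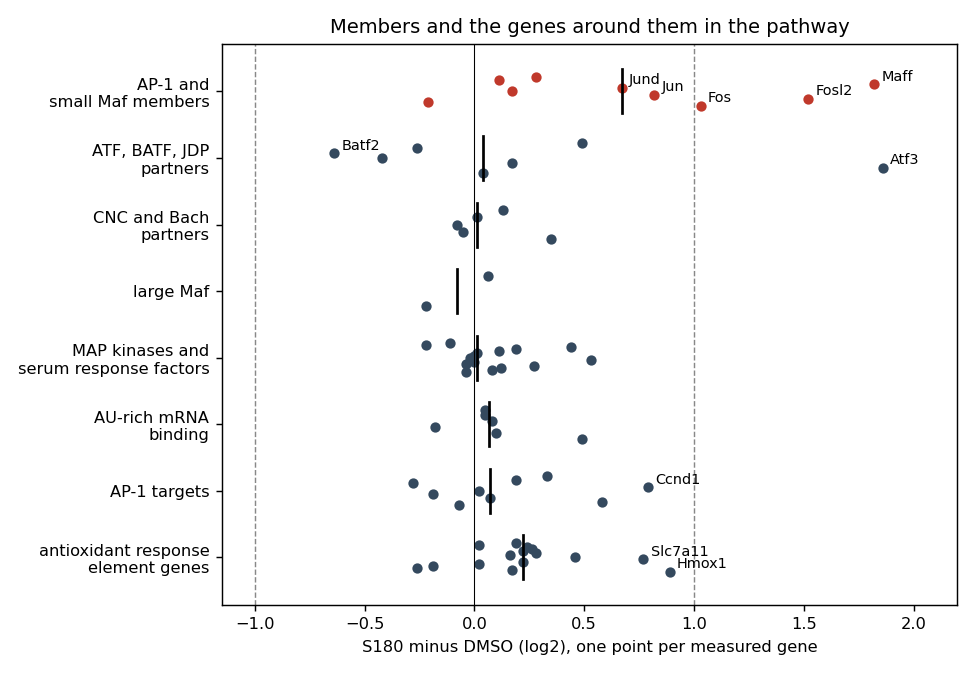
S180 minus DMSO (log2) of each measured gene among the members (red) and in 7 lists of partner, upstream and target genes (dark), with a bar at each list's median and dashed lines at 2-fold; vertical scatter within a row has no meaning. Names mark genes at least 1.5-fold apart: the members' median is 0.67, those of the other lists lie between -0.08 and 0.22, and Atf3 is the 1 listed gene outside the members past 2-fold. Members and lists were chosen with results of these data known, so nothing is read from the contrast of medians.

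Promoter sequence was examined for short elements bound by early-response and stress factors, over RefSeq windows of 300 bases (assembly GRCm38.p6) from 250 before to 50 after a transcript start. The members had 11 windows in 9 genes, 3 of them for the 3 starts of Maff. Fosl1 has no window here. Both strands were searched for the AP-1 site TGAGTCA, the cAMP response element TGACGTCA, the antioxidant response element core TGACNNNGC, the hypoxia response element cores ACGTG and GCGTG, the ATF4 element TGATGNAA, and the CArG box of the serum response factor. TGACATCA, the AP-1-like element known from the Jun promoter, was added after the windows had been read. An AP-1 site followed by GC on its reverse strand would also count as an antioxidant core, and CACGTG counts once on each strand.

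Around the Maff starts 1 match of each element found is shown, because Maff had the largest difference of the members. Capitals mark each match, and all stretches read on the plus strand of chromosome 15.
Maff start 1, antioxidant core, chr15:79346499-79346528: gggcgtctcaTGACTCTGCcactggaaaga
Maff start 2, hypoxia core, chr15:79347317-79347346: ctccagaggtgtCACGTGaatgcatccaga
Maff start 2, cAMP response element, chr15:79347480-79347509: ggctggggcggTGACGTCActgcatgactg
Maff start 3, Jun-type element, chr15:79348346-79348375: ctggagccatgTGACATCAgtgtttgttcc

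The antioxidant core lies 112 bases upstream of the first Maff start, and 12.4% of all 32851 windows hold one. The hypoxia core shown lies 191 bases upstream of the second start, whose window held 5 matches in all, and 43.8% of all windows hold at least 1. The cAMP response element lies 29 bases upstream of the second start, and 1.79% of windows hold one. The Jun-type element lies 45 bases upstream of the third start, and 3.62% of windows hold one. The array probe does not tell which start the Maff RNA came from.

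The 250 bases upstream of Jun and Fos, which were higher in S180, and of Mafk, which was not 1.5-fold apart, are shown with the same elements in capitals. Jun reads on the minus strand, chr4:95052223-95052472. Fos and Mafk read on the plus strand, chr12:85473640-85473889 and chr5:139791286-139791535.
Jun: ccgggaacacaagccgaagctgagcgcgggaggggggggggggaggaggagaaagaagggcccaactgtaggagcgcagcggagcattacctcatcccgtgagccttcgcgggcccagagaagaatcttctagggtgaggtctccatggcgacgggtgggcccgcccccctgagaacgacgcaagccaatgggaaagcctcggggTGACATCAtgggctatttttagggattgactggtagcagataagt
Fos: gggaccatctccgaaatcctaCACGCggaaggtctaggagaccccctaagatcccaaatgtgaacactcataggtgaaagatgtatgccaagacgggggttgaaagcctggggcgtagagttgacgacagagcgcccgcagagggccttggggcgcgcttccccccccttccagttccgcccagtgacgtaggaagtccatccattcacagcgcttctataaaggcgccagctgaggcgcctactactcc
Mafk: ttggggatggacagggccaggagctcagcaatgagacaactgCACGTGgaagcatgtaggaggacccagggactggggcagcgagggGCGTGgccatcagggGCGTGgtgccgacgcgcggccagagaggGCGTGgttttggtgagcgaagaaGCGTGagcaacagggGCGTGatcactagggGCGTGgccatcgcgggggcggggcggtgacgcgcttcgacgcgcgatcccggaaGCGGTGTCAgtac

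In Jun the AP-1-like element lies 45 bases upstream of the start, and Jun and Maff were the members that held it, in 2 of 11 windows. Of the elements searched, Fos held a single hypoxia core, 229 bases upstream. Only exact matches counted. The Fos stretch also holds tgacgtag, which differs from the cAMP response element TGACGTCA in its last letters and was not marked. Mafk held 8 hypoxia core matches and an antioxidant core 13 bases upstream. Mafg held 3 hypoxia core matches and an antioxidant core, 222 bases upstream. Hypoxia core matches also lay in the windows of Junb (2), Jund (2) and Fosb (1, downstream of the start). In all, 7 of 11 member windows held at least 1 hypoxia core, against 43.8% of all windows. Fosl2, at 2.86-fold the second largest difference, held no match. The AP-1 site, the ATF4 element and the CArG box were found in 0 of 11 member windows, against 5.2%, 3.97% and 1.63% of all windows. The serum response element known for Fos lies farther upstream than these windows reach. Whether any of these elements bears on the differences was not tested.

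**Figure D5:**
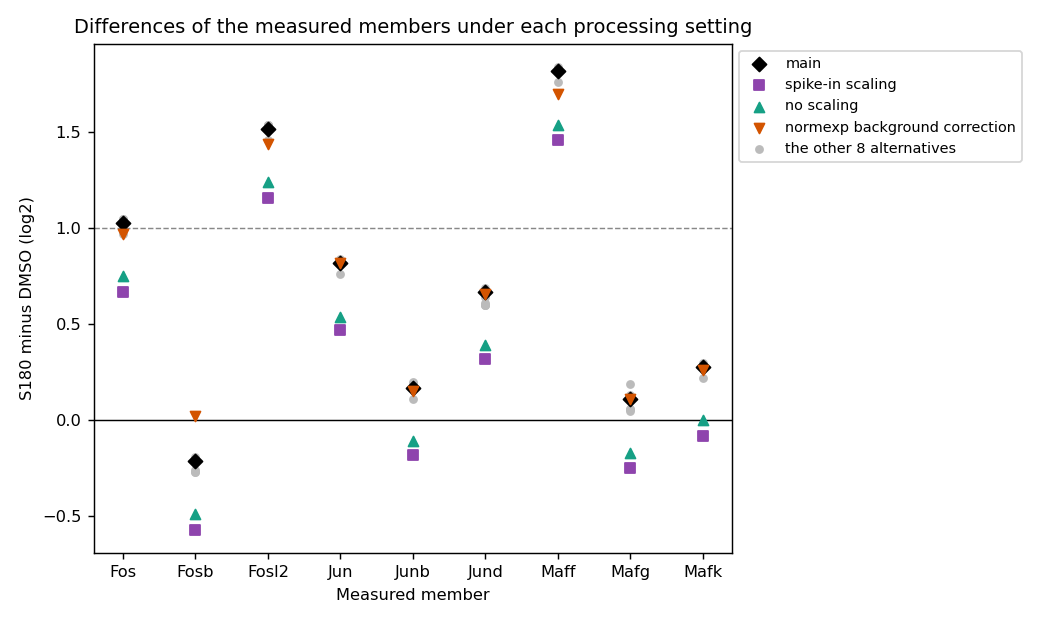
S180 minus DMSO (log2) of the 9 measured members in the main setting (black diamonds) and under 11 alternatives, with those that move values most in colour and the dashed line at 2-fold. Maff and Fosl2 lie above 2-fold in all 12 settings, Fos in 8 of 12, and Junb, Mafg and Mafk lie near or below 0 with spike-in scaling or no scaling. Settings that change only probes, filters or outlier spots repeat the main value of a gene with 1 measured probe.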

How the data were processed

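Total RNA of mouse cells, 1 sample given S180 and 1 given DMSO, was labelled with Cy3 and hybridised to Agilent arrays, per the labels' protocols. The spot intensities were deposited as written by Agilent Feature Extraction 10.7.1.1, per the submitters' processing notes and the file headers. The processed intensity is background-subtracted and not scaled between arrays, per the file headers. A value table that the authors deposited for both samples is in log2; 99.78% and 99.74% of them lay within 0.01 of quantile-normalised log2 processed intensities (column medians 5.27 each).

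Control spots were left out, as were 120 and 195 spots with outlier flags (S180 and DMSO). Spots of a probe were averaged in log2, and each array's 75th percentile was subtracted (Python 3.11.15, pandas 2.3.3). A gene, named as in the files, was represented by its brightest probe. Called means at least 2-fold; no test was run. The alternatives were other scalings, normexp (limma 3.58.1, offset 50), other filters, other probe choices, the deposited table, and 1.5-fold and 3-fold thresholds. Scaling and counting were tested on copies of the DMSO array with simulated noise. Genes with probes above the median signal were shifted by well over 2-fold. That test does not cover differences near 2-fold or changes in genes with dim probes only. A probe well above background on 1 array has a bound against the lowest signal well above background on the other. Named genes were all members, list genes 1.5-fold apart, the brightest of each list, and 3 genes on each side of Maff; other list genes were named after their values were seen. The members and lists were chosen with earlier results of these data known. The number of arrays limits the precision.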

Additional observations from a re-analysis of the deposited data

How the results depend on the processing

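The count of members at least 2-fold higher was 3 in the main setting, 5 at 1.5-fold and 1 at 3-fold. It was 2, without Fos, with spike-in scaling, no scaling, median scaling and normexp, and 3 under the other 7 alternatives at 2-fold. The members' median (0.67) was 0.60 with quantile normalization, in the deposited table and with each gene's probe of smallest difference, 0.61 with median scaling, 0.48 without the filter on dim probes, 0.39 without scaling and 0.32 on the spike-in scale, where the median gene lay at -0.28 and -0.35 in the last 2 settings. Over all measured genes 121 were at least 2-fold higher and 35 lower (77.6% of calls higher). The counts were 49 and 257 on the spike-in scale (16%), 62 and 173 without scaling (26.4%), 74 and 7 with normexp (91.4%), 98 and 48 with median scaling (67.1%), and 1778 and 812 without the filter on dim probes. No member called at 2-fold changed sign. Those members have 1 measured probe each, so settings that change only probes, filters or outlier spots repeated their main values. Such repeats are among the 99 values that follow. Of 99 values of single members under alternatives, 69 moved by less than the spread between repeated spots and 30 by more; the cause was not tested, beyond the shift that scaling by 1 factor gives every gene. No paired analysis was possible because each group has 1 array, and none could be left out. Depth sets a limit at dim probes: 3 of 16 member probes were not well above background on either array, so no difference could be given there.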

Other observations

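A transcript from the strand opposite Jun is listed on the array as Junos; it lies outside the rule for the members and was chosen after its values were seen. Of its 3 probes 1 was measured, at chr4:94832931-94832990 on the plus strand (mm9). It does not overlap the Jun probe at chr4:94716928-94716987. Its signals were 192.38 in S180 and 194.87 in DMSO, a difference of 0.26.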
